A study of Mus musculus with 24 samples.

Results

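The HIN-200 family of mouse DNA sensors was followed in skin and bone after proton irradiation. Its 9 members here are Aim2, Ifi203, Ifi204, Ifi205, Ifi207, Ifi209, Ifi211, Ifi213 and Mndal, chosen by name out of 55471 genes in each deposited file. Identifiers were joined to names with GENCODE M21, and all 9 members were found. Polyadenylated RNA of female mice 10 weeks old was sequenced in paired reads of 150 bases. Each tissue had 3 groups of 4 biological replicates, labelled F-PRT, S-PRT and Untreated. F-PRT is taken to mean FLASH proton radiotherapy, given at ultra-high dose rate, and S-PRT standard proton radiotherapy, given at conventional dose rate. The series is titled as a mouse sarcoma model; its sample labels name normal tissues only, and neither mouse strain, beam dose, sampling time nor strandedness is in them. In each tissue both beams were compared with the same 4 Untreated libraries, so the comparisons of the beams share their controls.

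HIN-200 proteins bind double-stranded DNA through a carboxy-terminal HIN domain, and most carry a pyrin domain at the other end. AIM2 assembles an inflammasome on cytosolic DNA: it recruits the adaptor ASC, encoded by Pycard, which activates caspase-1, and caspase-1 cleaves gasdermin D and the precursors of interleukin 1 beta and interleukin 18. Many genes of the family are induced by interferon, and they are best known from macrophages and other cells of the blood lineage.

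The 9 genes lie in a single cluster of 681 kb on chromosome 1 (GRCm38, chr1:173350879-174031810, GENCODE M21). Aim2 (ENSMUSG00000037860, chr1:173350879-173466040) and Ifi209 (ENSMUSG00000043263, chr1:173630917-173647928) are on the + strand, and the other 7 are on the - strand. In order along the chromosome these are Ifi213 (ENSMUSG00000073491, chr1:173566283-173599274), Ifi207 (ENSMUSG00000073490, chr1:173723427-173741747), Ifi204 (ENSMUSG00000073489, chr1:173747293-173766943), Mndal (ENSMUSG00000090272, chr1:173849126-173942491), Ifi211 (ENSMUSG00000026536, chr1:173896345-173913046), Ifi203 (ENSMUSG00000039997, chr1:173920407-173942672) and Ifi205 (ENSMUSG00000054203, chr1:174011998-174031810). The Mndal model overlaps Ifi211 and Ifi203 on the same strand, and the Aim2 model overlaps Cadm3 on the opposite strand. Ifi209 likewise overlaps Gm44339 on the opposite strand. These are overlaps of whole gene models. Because the library strand is not given, reads of the opposite-strand pairs cannot be told apart by strand where they overlap. For Mndal with Ifi211 and Ifi203 strand would not separate reads in any case.

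**Figure D1:**
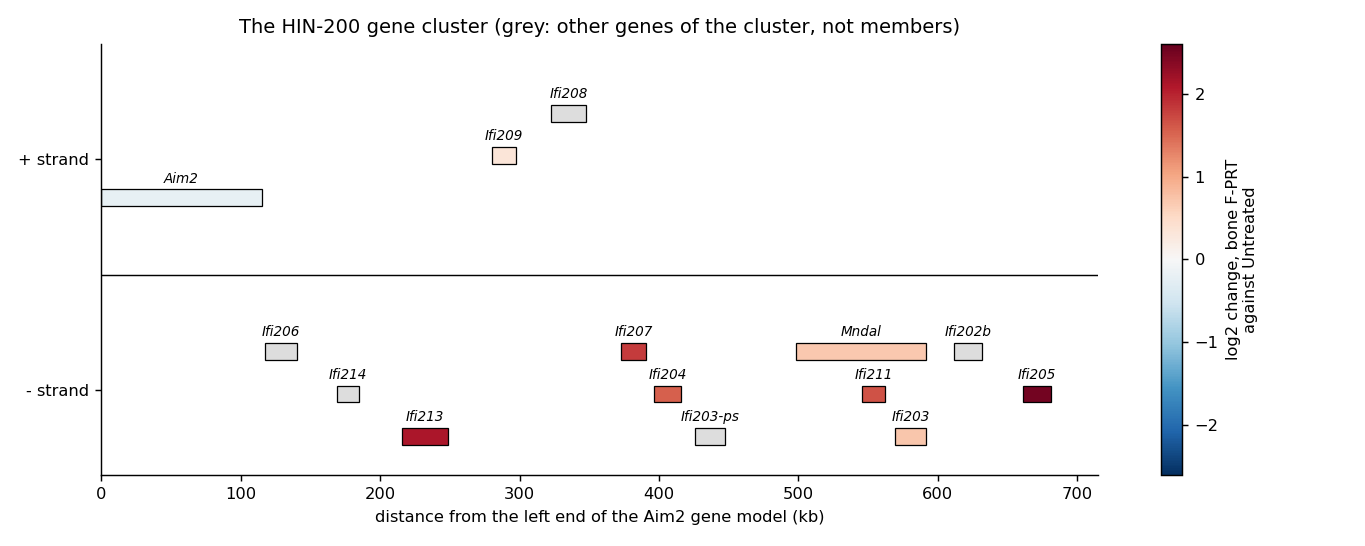
Gene models of the HIN-200 cluster by strand, with distance in kb from the left end of the Aim2 model on the x axis. Members are coloured by their log2 change in bone after F-PRT against Untreated, from -0.22 for Aim2 to 2.51 for Ifi205, and grey models are cluster genes outside the 9 members.

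Interferon acts on many promoters through an element with the core GAAANNGAAA, so the RefSeq promoter windows (GRCm38.p6, 250 bases before to 50 bases after each start) were searched for these letters on both strands. A window was held for 8 of the 9 members, all but Ifi204. The letters were found in 6 of these 8: Ifi203, Ifi205, Ifi207, Ifi211, Ifi213 and Mndal. Over all promoters, 3.99% of 27025 genes had them. Of 4 other HIN-200 genes with a window, 3 also had them: Ifi206 and Ifi208, which rose in bone, and Ifi214, which did not pass. The stretches of 40 bases around them are shown for the members, to compare how closely they resemble each other, beside that of Ifi214. The matched letters are in capitals, 5′ to 3′ on the gene's strand.
Ifi205, chr1:174031865-174031904: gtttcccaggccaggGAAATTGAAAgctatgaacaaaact
Ifi211, chr1:173913059-173913098: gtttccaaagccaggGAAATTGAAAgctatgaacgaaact
Ifi207, chr1:173741826-173741865: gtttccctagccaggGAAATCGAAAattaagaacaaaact
Ifi213, chr1:173599321-173599360: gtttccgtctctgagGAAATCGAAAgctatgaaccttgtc
Ifi203, chr1:173942503-173942542: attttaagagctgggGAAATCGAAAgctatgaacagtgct
Mndal, chr1:173880199-173880238: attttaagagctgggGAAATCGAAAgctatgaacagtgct
Ifi214, chr1:173536012-173536051: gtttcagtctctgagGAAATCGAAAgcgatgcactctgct
Ifi209 (1 difference), chr1:173630765-173630804: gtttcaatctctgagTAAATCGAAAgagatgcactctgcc

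The first base of the letters lies 134 bases before the RefSeq start in Ifi205, 73 in Ifi213, 41 in Ifi207, 37 in Ifi211, 36 in Mndal and 35 in Ifi203. Ifi205 and Mndal each have a further match on the opposite strand, in Ifi205 after the start and in Mndal before another of its starts, and of the 2 start windows of Ifi203 1 has no match. Ifi203 and Mndal have the same 40 bases, and Ifi205 and Ifi211 share the letters GAAATTGAAA. The nearest stretch in Ifi209, capitals above, differs from GAAATCGAAA by G1T, counted from 1 at its 5′ end. In Aim2 the nearest stretch has 3 differences from those letters. A second pattern searched, TTCNNNGAA, was found in 0 of the 8 members and in 9.55% of all genes. A match is a description of letters and shows no binding, and a window without one says nothing of the factor.

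The 250 bases before the start are printed for Ifi205, the member with the largest rise in bone, and for Aim2, which did not rise, so that both can be read side by side, with GAAANNGAAA in capitals.
Ifi205, - strand, chr1:174031756-174032005: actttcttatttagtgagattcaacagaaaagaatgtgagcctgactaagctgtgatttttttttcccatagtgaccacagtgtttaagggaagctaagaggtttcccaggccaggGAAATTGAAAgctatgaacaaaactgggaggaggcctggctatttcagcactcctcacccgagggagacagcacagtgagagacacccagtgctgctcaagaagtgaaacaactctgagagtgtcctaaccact
Aim2, + strand, chr1:173420354-173420603: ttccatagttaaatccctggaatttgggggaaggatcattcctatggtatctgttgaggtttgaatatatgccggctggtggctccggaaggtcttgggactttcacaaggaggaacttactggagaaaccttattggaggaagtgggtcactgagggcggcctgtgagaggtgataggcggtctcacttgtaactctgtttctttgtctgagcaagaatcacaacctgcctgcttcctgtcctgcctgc

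Members resemble each other in sequence, which bears on how surely a read is assigned. Of all stretches of 150 bases in the transcripts of Aim2 and Ifi207, 0% occur letter for letter in another gene. Stretches that differ in any base were not counted as shared. The share was 46.39% for Ifi211, most of it with Ifi205 (32.27%). It was 12.65% for Ifi205, 9.28% for Ifi209 (all with Ifi214) and 6.77% for Ifi204, and 1.61% or less for Mndal, Ifi203 and Ifi213. Values of Ifi211 and Ifi205 singly are therefore less certain than the family sum.

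Each skin library held 16.42 to 22.09 megacounts of expected counts, and each bone library 10.91 to 17.36. All 9 members passed the filter on low counts in both tissues. Changes between groups are given in CPM, counts per mapped megacount with TMM scaling within a tissue, and levels of different genes in the deposited TPM, which are also divided by transcript length. The scales differ in bone: over all 18848 tested genes the median log2 ratio of TPM was 0.70 after F-PRT and 0.63 after S-PRT against Untreated, and that of CPM was -0.01 in both. In skin the TPM medians were 0.22 and 0.29. One skin library stood apart: S-PRT 4 had 7.91 CPM of endothelial markers against up to 205 in its group, and 184 CPM of macrophage and monocyte markers. It and 4 others (skin Untreated 1, bone F-PRT 2, bone F-PRT 3 and bone Untreated 1) had been marked as standing apart in earlier work on these data, and the counts of members were repeated without these 5 libraries in doubt. The tissue labels matched their markers, with keratinocyte genes summing to at least 12200 CPM in every skin library and osteoblast and osteocyte genes to at least 1130 CPM in every bone library.

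Without irradiation the family was more abundant in bone than in skin, with a different make-up. Both levels are per length. The 9 members summed to 82.7 ± 25.1 TPM in bone and 30.7 ± 5.23 TPM in skin (SD, n = 4 each). In bone, Mndal, a nuclear protein of the family, was the largest share of the sum at 24.2% ± 2.46, followed by Ifi203 at 20.3% ± 1.59 and Aim2 at 15.8% ± 4.12. In skin Ifi205 was the largest at 23.1% ± 3.81, and in bone it was the smallest at 1.36% ± 0.423. Ifi205 was first of 9 in all 3 skin groups and last in all 3 bone groups, as the plot of shares shows.

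**Figure D2:**
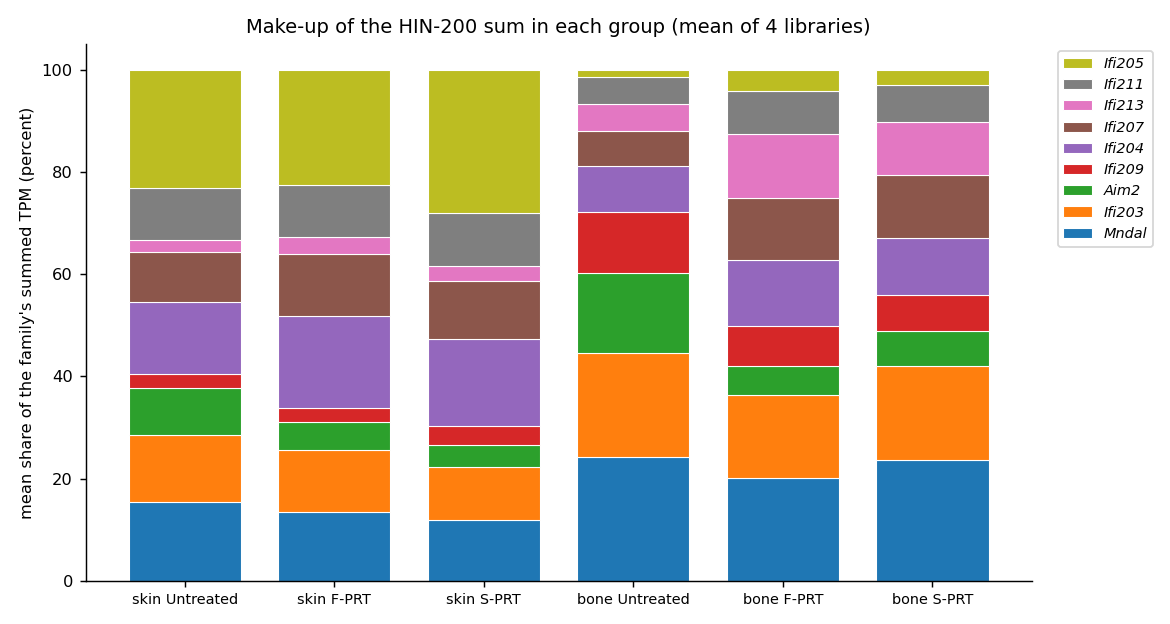
Mean share of each member in the family's summed TPM (y axis, percent) in the 6 groups of 4 libraries. Ifi205 makes up 23.1% of the sum in untreated skin and 1.36% in untreated bone, and Mndal 24.2% in untreated bone.

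In the fit over all 24 libraries, 5 members were higher and 1 was lower in untreated bone than in untreated skin. Of all 20754 tested genes, 32.6% were higher and 32.6% lower, so differences of this kind were common. Ifi209 was 10.9-fold higher in bone (log2 3.45 ± 0.36 SE, adjusted p = 1.65e-08). Aim2 was 5.33-fold higher (log2 2.41 ± 0.19 SE, adjusted p = 2.67e-10). Its level was 12.3 ± 0.942 TPM in bone and 2.81 ± 0.486 TPM in skin. Ifi213, Mndal and Ifi203 were 5.46-fold, 4.52-fold and 4.11-fold higher, with adjusted p of 2.89e-05, 3.48e-06 and 1.67e-05. Ifi205 was lower in bone, at 0.146 of its skin level (log2 -2.77 ± 0.39 SE, adjusted p = 1.92e-06). Ifi204, Ifi207 and Ifi211 had log2 differences of 0.66, 0.76 and 0.37 that did not pass (adjusted p from 0.0609 to 0.325). Ifi204 and Ifi207 passed without skin S-PRT 4, and Ifi207 without bone Untreated 1 or skin Untreated 4.

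Over all 6 groups the family sum was ordered bone F-PRT (269 TPM), bone S-PRT (181), bone Untreated (82.7), skin S-PRT (64.8), skin F-PRT (56.9) and skin Untreated (30.7). Bone Untreated and skin S-PRT overlapped, as did skin S-PRT and skin F-PRT, and the other neighbours in this order did not. This order on TPM includes the upward shift of all genes after irradiation given above. On CPM the sums of bone S-PRT and bone Untreated overlapped. In bone the mean of Aim2 was highest untreated on CPM, at 20.5 against 17.6 after F-PRT. Bone F-PRT was the highest group for 8 of the 9 members on TPM, with Mndal the most abundant of them at 54.1 ± 7.74. Ifi205 was the exception, with 18.0 ± 10.4 TPM in skin S-PRT, 12.8 ± 3.43 in skin F-PRT and 10.9 ± 1.99 in bone F-PRT, and these neighbours overlapped. Aim2 and Ifi209 were split by tissue, as were Mndal and, by group means, Ifi203 and Ifi213: each bone group was above each skin group, with Aim2 at 12.3 to 15.1 TPM in bone and 2.16 to 3.00 TPM in skin as group means. Ifi204, Ifi207 and Ifi211 had untreated bone below irradiated skin, for example Ifi204 at 7.59 ± 3.05 TPM in untreated bone and 10.2 ± 2.56 TPM in F-PRT skin, with overlapping ranges.

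In bone the family rose after F-PRT. Of the 9 members, 7 rose and 0 fell against Untreated, where 15.5% of 18848 tested genes rose and 17.2% fell. The median log2 change of the members was 1.56, and that of all tested genes was -0.01. In 7 of 9 all F-PRT libraries were above all untreated ones, which held for 15.0% of tested genes. The largest rises were those of Ifi205 at 5.68-fold, Ifi213 at 4.37-fold and Ifi207 at 3.51-fold, and Aim2 and Ifi209 did not pass the test. After S-PRT 5 members rose and 1, Aim2, fell, where 13.3% of tested genes rose and 15.2% fell, with a member median of 0.84. In 5 members all S-PRT libraries were above all untreated ones, as in 12.1% of tested genes. In the same libraries all 10 neutrophil markers fell after both beams. Of 15 macrophage and monocyte markers 12 rose and 2 fell, and their summed CPM overlapped Untreated. Most osteoclast, adipocyte and endothelial markers rose as well. In bulk samples more cells of a type and more RNA per cell cannot be told apart, and the part of cell make-up in the members' changes was not tested.

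Ifi205, studied in macrophages as a regulator of the adaptor ASC, was low in untreated bone at 3.58, 2.06, 4.33 and 2.68 CPM. After F-PRT its 4 libraries stood at 13.5, 21.5, 17.3 and 19.6 CPM, and after S-PRT at 8.96, 7.88, 11.8 and 10.2 CPM. The 3 groups did not overlap, in the order Untreated, S-PRT, F-PRT. The rise was 5.68-fold after F-PRT (log2 2.51 ± 0.23 SE, adjusted p = 4.1e-06) and 3.07-fold after S-PRT (log2 1.62 ± 0.23 SE, adjusted p = 0.000169).

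Ifi204, the mouse gene most often compared with human IFI16, a sensor that signals through STING, stood at 15.3, 24.5, 31.0 and 28.1 CPM in untreated bone. The F-PRT libraries had 58.3, 86.1, 60.2 and 89.0 CPM and the S-PRT libraries 40.5, 32.2, 49.7 and 55.4 CPM. For Ifi204 every irradiated library was above every untreated one, and F-PRT lay above S-PRT without overlap. It rose 2.95-fold after F-PRT (log2 1.56 ± 0.23 SE, adjusted p = 0.000186) and 1.79-fold after S-PRT (log2 0.84 ± 0.22 SE, adjusted p = 0.0131).

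Ifi213 had 13.0, 15.2, 24.5 and 17.6 CPM in untreated bone, 61.2, 87.7, 70.2 and 90.5 CPM after F-PRT, and 40.1, 40.0, 48.5 and 58.2 CPM after S-PRT. Its 3 groups were again apart, in the same order as for Ifi205. The rises were 4.37-fold (log2 2.13 ± 0.20 SE, adjusted p = 5.67e-06) and 2.64-fold (log2 1.40 ± 0.20 SE, adjusted p = 0.000176).

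Ifi207 had 23.6, 27.8, 35.7 and 34.6 CPM in untreated bone, 89.3, 119, 99.6 and 120 CPM after F-PRT, and 78.9, 57.0, 77.2 and 90.8 CPM after S-PRT. Both irradiated groups were above Untreated, and they overlapped each other only through F-PRT 1 and S-PRT 4. It rose 3.51-fold after F-PRT (adjusted p = 4.84e-06) and 2.49-fold after S-PRT (adjusted p = 6.89e-05). Ifi207 shares no exact stretch of 150 bases with another gene. Near-identical stretches were not counted, so this does not exclude divided reads.

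Ifi211, which shares much sequence with Ifi205, had 7.81, 11.7, 14.9 and 12.7 CPM in untreated bone. It had 31.8, 41.9, 33.6 and 42.3 CPM after F-PRT and 21.6, 14.9, 26.8 and 28.3 CPM after S-PRT. The F-PRT libraries were all above those of both other groups, and S-PRT 2 was above the highest untreated library by less than 3 digits show. The rises were 3.14-fold (adjusted p = 7.3e-05) and 1.93-fold (adjusted p = 0.00458).

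Ifi203 and Mndal, the most abundant pair in bone, changed less. Ifi203 had 63.6, 85.4, 97.2 and 74.7 CPM in untreated bone and 112, 140, 125 and 149 CPM after F-PRT, a rise of 1.64-fold (log2 0.71 ± 0.15 SE, adjusted p = 0.0029). Mndal had 32.3, 38.3, 44.1 and 35.4 CPM untreated and 52.4, 64.7, 56.4 and 71.5 CPM after F-PRT, a rise of 1.63-fold (log2 0.70 ± 0.14 SE, adjusted p = 0.00174). Neither group pair overlapped. After S-PRT both overlapped Untreated, with Ifi203 at 84.2 to 123 CPM and Mndal at 39.0 to 55.4 CPM, and neither passed (log2 0.36 and 0.38, adjusted p = 0.0915 and 0.056). For Mndal after S-PRT the call depended on the setting, with adjusted p from 0.023 to 0.144 over 20 alternatives and 6 of them past the test, among them those without S-PRT 1 (0.023) or Untreated 3 (0.0351). Ifi203 passed without Untreated 3 as well (log2 0.47, adjusted p = 0.0462).

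Aim2, the inflammasome sensor, did not rise in bone on CPM. It stood at 20.9, 21.6, 20.6 and 18.6 CPM untreated, 17.5, 18.5, 18.7 and 15.7 CPM after F-PRT and 11.9, 16.6, 17.6 and 17.8 CPM after S-PRT. All 4 S-PRT libraries were below all 4 untreated ones, as were 14.4% of tested genes, and the F-PRT libraries overlapped Untreated through F-PRT 3 alone. The log2 change was -0.22 ± 0.12 SE after F-PRT (adjusted p = 0.206) and -0.36 ± 0.12 SE after S-PRT (adjusted p = 0.0456). The S-PRT call held in 6 of 20 alternatives, with adjusted p from 0.042 to 0.273. It was lost without S-PRT 1, the lowest library (log2 -0.24, adjusted p = 0.0962), and without any other single bone library but S-PRT 3, S-PRT 4 or Untreated 4. On TPM the direction turned for both beams: Aim2 had 12.3 ± 0.942 TPM untreated, 15.1 ± 0.717 after F-PRT and 12.4 ± 2.43 after S-PRT, less than the upward shift of all genes given above.

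Ifi209 was the other member with no rise that passed. Its CPM were 29.7, 56.3, 74.2 and 58.4 untreated, 60.5, 78.0, 65.3 and 72.5 after F-PRT and 39.9, 30.8, 56.3 and 47.6 after S-PRT. Untreated 1 was the lowest library of all 12, and the untreated group overlapped both others. The log2 change was 0.33 ± 0.23 SE after F-PRT (adjusted p = 0.293) and -0.33 ± 0.23 SE after S-PRT (adjusted p = 0.32), the last positive on TPM (10.3 ± 4.75 against 12.6 ± 3.06). Without the untreated library 1 Ifi209 passed as lower after S-PRT (log2 -0.50, adjusted p = 0.0422).

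**Figure D3:**
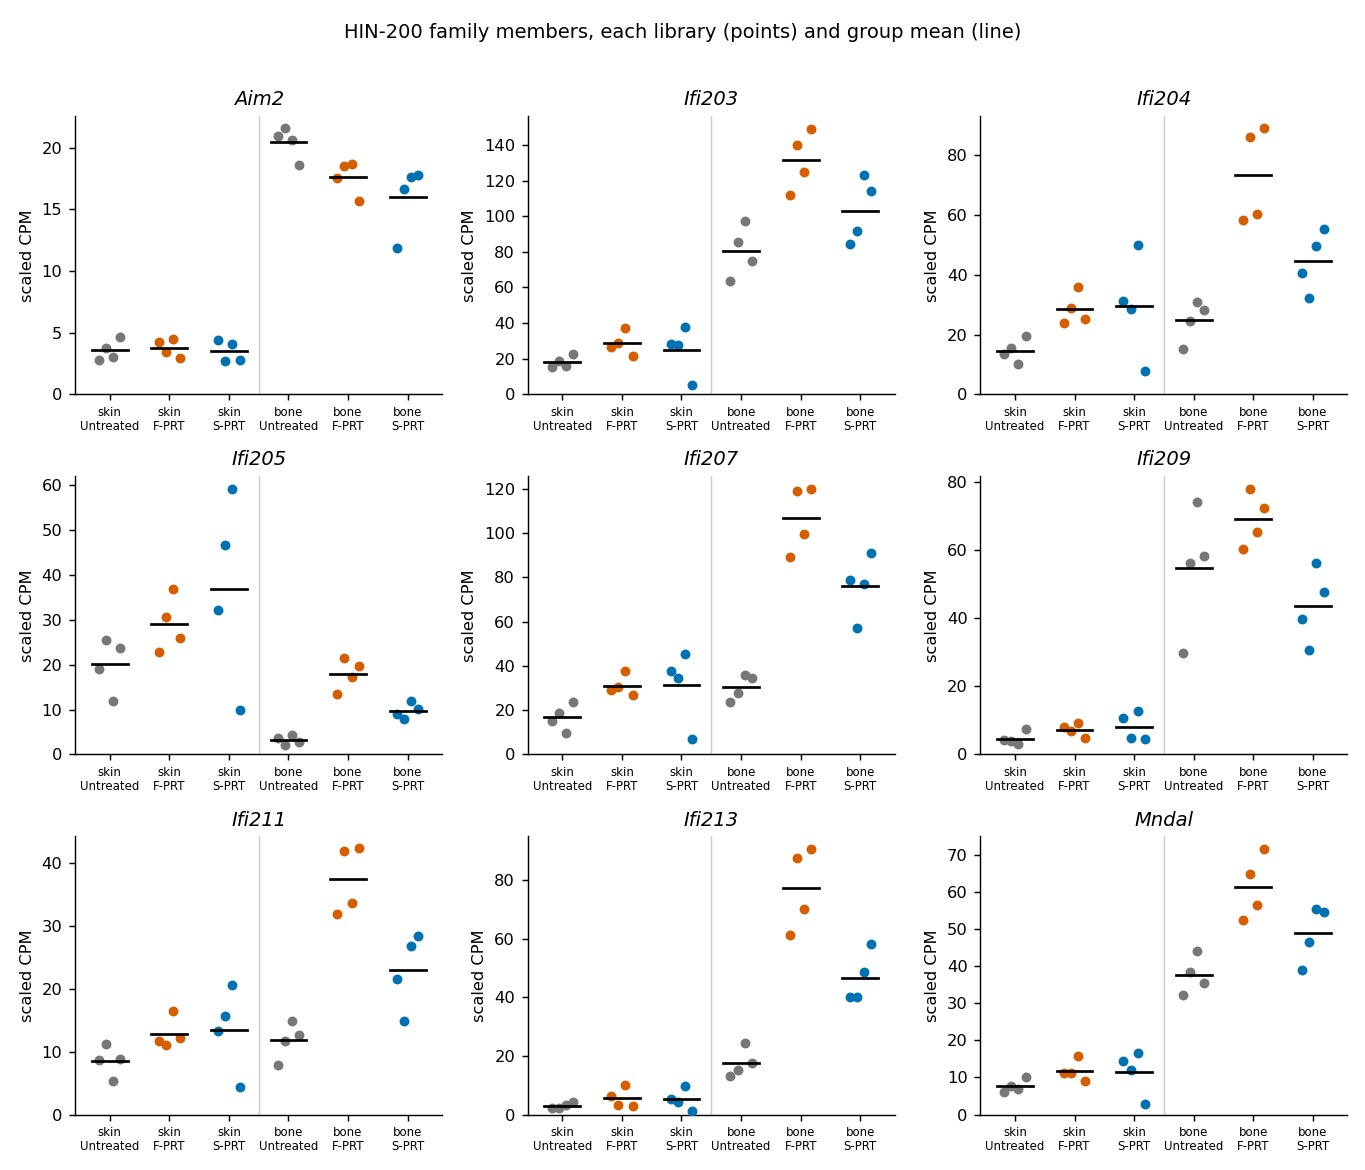
Scaled CPM (y axis) of each member in each of the 24 libraries (points) with group means (lines). CPM are scaled within a tissue, so heights on the left and right of the grey line are not on a common scaling. In bone 5 members, Ifi204, Ifi205, Ifi207, Ifi211 and Ifi213, have every irradiated library above every untreated one, and Aim2 and Ifi209 do not.

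**Figure D4:**
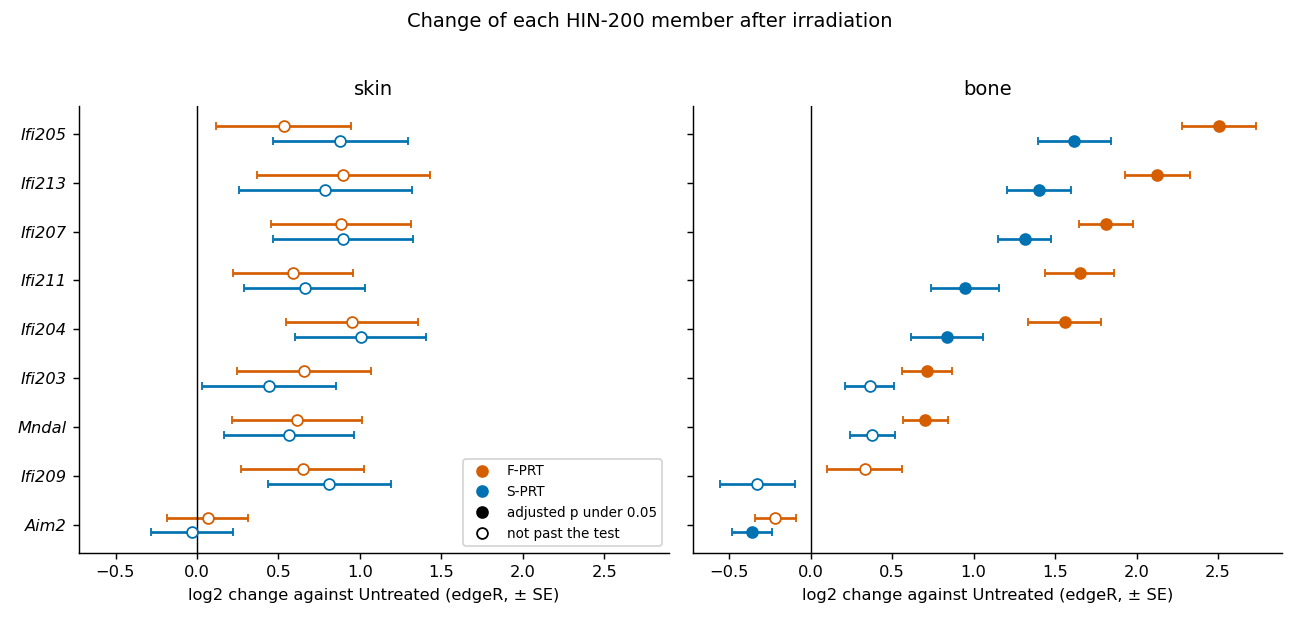
Log2 change against Untreated (x axis, edgeR estimate ± SE derived from its F test) of each member (y axis) in skin and bone. Filled points passed an adjusted p of 0.05: 7 members after F-PRT and 6 after S-PRT in bone, and 0 in skin.

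In bone the family sum was 210, 283, 347 and 283 CPM untreated, 496, 658, 547 and 671 after F-PRT and 365, 337, 466 and 477 after S-PRT. F-PRT lay above both other groups, and S-PRT 2 was below Untreated 3. The log2 ratio of mean CPM was 1.08 after F-PRT and 0.55 after S-PRT. On TPM the sum was 82.7 ± 25.1 untreated, 269 ± 40.3 after F-PRT and 181 ± 29.4 after S-PRT, with log2 ratios of 1.70 and 1.13, larger by about the shift of all genes on that scale. The members' choice came with earlier results known, so no p is given for the sum. The share of Aim2 in the TPM sum went from 15.8% ± 4.12 untreated to 5.69% ± 0.748 after F-PRT, and that of Ifi213 from 5.38% ± 0.781 to 12.5% ± 0.809.

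The beams were also set against each other in bone. None of the 9 members passed edgeR's test between F-PRT and S-PRT, and 1 of 18848 genes did (0.00531%). All 9 log2 differences were positive, from 0.14 for Aim2 to 0.89 for Ifi205, with a median of 0.66 against 0.01 over all genes. This was not particular to the family. All 30 genes of interferon signalling and response (median 0.44) and all 15 macrophage and monocyte markers (median 0.25) were positive too. All 9 osteoblast and osteocyte markers were negative. Of the members 8 had an unadjusted p under 0.05, where 3.36% of all genes had one. For 5 members (Ifi204, Ifi205, Ifi209, Ifi211 and Ifi213) all F-PRT libraries were above all S-PRT libraries, where this held for 1.80% of tested genes. Most members move together over the libraries and some share stretches of sequence, so these counts are not 9 separate results. Ifi205 had the largest difference, log2 0.89 ± 0.20 SE (unadjusted p = 0.000688, adjusted p = 0.682). DESeq2 called Ifi205 alone of the members (adjusted p = 0.0217), where it called 21 of all 18848 genes (0.111%), and voom with quality weights called 0. A difference between the beams in the members was thus not shown after adjustment over all genes, and the missed threshold does not show that the beams act alike.

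In skin most members had higher values after both beams, but none passed the test. After F-PRT all 9 log2 changes were positive, from 0.07 for Aim2 to 0.95 for Ifi204, with a median of 0.65. edgeR called 0 of 9, where 2.39% of 19038 tested genes passed. An unadjusted p under 0.05 was found for 1 member and 14.9% of genes, DESeq2 called 0 members, and voom called 2, where it called 13.8% of all genes. After S-PRT 8 changes were positive, the median was 0.79, and edgeR again called 0 of 9, where 4.34% of tested genes passed. An unadjusted p under 0.05 was found for 1 member and 16.8% of genes, DESeq2 called 0 members, and voom called 4, where it called 16.3% of all genes. On TPM the family sum was 30.7 ± 5.23 untreated, 56.9 ± 14.7 after F-PRT and 64.8 ± 37.5 after S-PRT (SD, n = 4 each).

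Ifi204 had the largest change in skin. It stood at 13.5, 15.5, 10.2 and 19.5 CPM untreated, 23.9, 28.8, 35.9 and 25.1 CPM after F-PRT, and 31.3, 28.4, 50.1 and 7.85 CPM after S-PRT. All F-PRT libraries were above all untreated ones, and 3 of the 4 S-PRT libraries were too, with S-PRT 4 below them all. The log2 change was 0.95 ± 0.40 SE after F-PRT (adjusted p = 0.289) and 1.00 ± 0.40 SE after S-PRT (adjusted p = 0.221).

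Ifi205, the most abundant member of skin per length, had 19.1, 25.4, 11.9 and 23.8 CPM untreated. After F-PRT it had 22.9, 30.6, 36.8 and 25.9 CPM, overlapping Untreated, and after S-PRT 32.2, 46.6, 59.1 and 9.90 CPM. Its log2 changes were 0.53 ± 0.41 SE (adjusted p = 0.601) and 0.88 ± 0.41 SE (adjusted p = 0.311). Ifi207 had 14.9, 18.6, 9.62 and 23.9 CPM untreated and 28.9, 30.6, 37.6 and 26.7 CPM after F-PRT, above Untreated without overlap (log2 0.89 ± 0.43 SE, adjusted p = 0.368). Ifi204 and Ifi207 were the only 2 of 9 members whose F-PRT and untreated libraries did not overlap in skin, where 8.02% of tested genes were above in this way. After S-PRT 0 of 9 were apart, against 3.81% of genes. Aim2 in skin had 2.82 to 4.68 CPM untreated, 2.91 to 4.47 after F-PRT and 2.72 to 4.42 after S-PRT, so the ranges were nearly the same.

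The other members of skin were Ifi203 at 15.4 to 22.4 CPM untreated and 21.7 to 37.4 after F-PRT, Mndal at 6.08 to 10.2 and 9.09 to 15.8, and Ifi211 at 5.38 to 11.2 and 11.1 to 16.4. Ifi209 had 2.96 to 7.42 and 4.82 to 9.29 CPM, and Ifi213 2.25 to 4.32 and 2.95 to 10.0. Each of these pairs of ranges overlapped. After S-PRT they were 5.39 to 37.7 CPM for Ifi203, 2.87 to 16.7 for Mndal, 4.33 to 20.6 for Ifi211, 4.68 to 12.7 for Ifi209 and 1.29 to 9.84 for Ifi213, with S-PRT 4 the lowest library each time. Their log2 changes after F-PRT lay between 0.59 and 0.90, with adjusted p from 0.464 to 0.517.

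Leaving out the low library S-PRT 4 changed the skin counts. Its family sum was 46.1 CPM, against 177, 177 and 256 CPM in the other S-PRT libraries, 144, 155, 204 and 132 CPM after F-PRT and 87.3, 107, 69.4 and 125 CPM untreated. Without it edgeR called 6 members higher after S-PRT, where 11.7% of all tested genes were called in either direction, and 3 after F-PRT, where 7.61% were. The 6 were Ifi203, Ifi204, Ifi205, Ifi207, Ifi211 and Mndal, with log2 changes from 0.78 to 1.32 and adjusted p from 0.00476 to 0.0219. The 3 after F-PRT were Ifi203, Ifi204 and Ifi207 (adjusted p = 0.043, 0.0227 and 0.0345). S-PRT 4 is in neither group of that comparison, but it is in the shared estimate of the spread. Their log2 changes hardly moved, from 0.65, 0.95 and 0.89 with it to 0.66, 0.96 and 0.89 without it. Leaving out all 5 libraries in doubt gave the same 6 members after S-PRT and 2, Ifi204 and Ifi207, after F-PRT, where 23.4% and 14.0% of all tested genes were called.

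No difference between the beams was detected among the members in skin. edgeR called 0 of 9 between F-PRT and S-PRT, as it did over all genes (0.00%), and DESeq2 and voom called 0 as well. None of the 9 had an unadjusted p under 0.05, against 2.74% of genes, and all groups overlapped. The log2 differences ran from -0.35 for Ifi205 to 0.21 for Ifi203.

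Whether the change differed between the tissues was tested as an interaction over all 24 libraries. For F-PRT it passed in 1 of 9 members, Ifi205, where 10.7% of 20754 tested genes passed. The log2 change of Ifi205 was larger in bone than in skin by 2.00 ± 0.52 SE (adjusted p = 0.0147), and it passed in 32 of 32 alternatives. Ifi213, Ifi211 and Ifi207 had differences of 1.25, 1.09 and 0.95 in the same direction that did not pass (adjusted p = 0.178, 0.136 and 0.241). Those of Ifi203 and Mndal were 0.08 and 0.11. Without skin S-PRT 4, which is in the shared estimate of the spread, Ifi207 and Ifi211 passed too (adjusted p = 0.0346 and 0.0297), where 14.3% of all tested genes passed. For S-PRT edgeR called 0 of 9, where 9.45% of tested genes were called; DESeq2 and voom called 0, and 1 member, Ifi209, had an unadjusted p under 0.05, against 22.5% of genes, with a log2 change in bone minus that in skin of -1.12 ± 0.46 SE (adjusted p = 0.142).

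Of the other HIN-200 genes of the cluster, 5 were in the files. Ifi206 and Ifi208 rose in bone after both beams, and Ifi214 and the pseudogene Ifi203-ps did not pass. Ifi206 had 8.68, 16.3, 27.1 and 19.2 CPM untreated and 57.3, 79.6, 65.7 and 78.5 CPM after F-PRT, a rise of 3.90-fold (adjusted p = 0.000167). Ifi208 rose 3.53-fold after F-PRT (adjusted p = 2.93e-05) and 2.21-fold after S-PRT (adjusted p = 0.00124). Ifi202b differed by tissue: it had 0 counts in all 4 untreated bone libraries, where 3 counts would be 0.200 to 0.325 CPM, and 15.6, 24.5, 30.7 and 19.9 CPM in untreated skin. After S-PRT skin had 10.3, 8.31, 13.9 and 17.7 CPM of it (log2 -0.85 ± 0.25 SE, adjusted p = 0.0855), and S-PRT 4, the lowest skin library for 7 of the 9 members, was the highest of its group for Ifi202b. Adding these 5 genes to the sum left the log2 ratio of TPM in bone at 1.78 after F-PRT and 1.17 after S-PRT.

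Of the partners and products through which AIM2 acts, Pycard, Casp1, Gsdmd, Il1b and Il18, Il18 alone passed the test in bone. Of 16 inflammasome genes, 6 rose and 3 fell after F-PRT, beside 15.5% and 17.2% of all tested genes. After S-PRT 2 rose and 4 fell, beside 13.3% and 15.2%. The medians were 0.13 and -0.02. Pycard, the adaptor, and Casp1, the protease, had log2 changes of -0.10 and 0.28 after F-PRT that did not pass (adjusted p = 0.629 and 0.317), nor did Gsdmd at -0.40 or Il1b at 0.17 (0.0768 and 0.66). Il18 rose 2.36-fold after F-PRT and 1.88-fold after S-PRT (adjusted p = 0.00301 and 0.0206), from 3.15 to 9.20 CPM untreated to 15.9 to 19.8 CPM and 8.77 to 17.8 CPM. Nlrp3 and Mefv, sensors of other inflammasomes, fell to 0.663 and 0.592 of the untreated level after F-PRT (adjusted p = 0.0066 and 0.00323), and Nlrp1b rose 1.97-fold (adjusted p = 0.0042). In skin Il1a alone passed, falling to 0.414 after S-PRT (adjusted p = 0.0183), where 4.34% of tested genes passed in either direction.

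The cGAS and STING pathway is the other main route of cytosolic DNA sensing. After F-PRT 5 of its 23 genes rose and 5 fell in bone, beside 15.5% and 17.2% of all tested genes, and after S-PRT 4 rose and 6 fell, beside 13.3% and 15.2%, so these counts were near the background. Cgas, the sensor, and Sting1, its adaptor, had log2 changes of 0.27 and 0.33 after F-PRT that did not pass (adjusted p = 0.162 and 0.19). Zbp1, a sensor of Z-form nucleic acid, rose 3.76-fold and 2.43-fold after the beams (adjusted p = 0.000239 and 0.00432). Irf7, an interferon-induced transcription factor, rose 2.80-fold after F-PRT (adjusted p = 2e-04) and was 1.45-fold higher without passing after S-PRT (0.0799). Trim56 fell to 0.635 and 0.652 (adjusted p = 0.000127 and 0.000241), and Nlrx1, a mitochondrial regulator of this signalling, to 0.457 and 0.511 (0.000189 and 0.000693). After S-PRT Trim32 and Xrcc5 were the other genes of smallest adjusted p, with rises of 1.65-fold and 1.31-fold (0.000799 and 0.00297).

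Of 11 nucleases that clear nucleic acids, 5 rose and 1 fell in bone after F-PRT, beside 15.5% and 17.2% of all tested genes. After S-PRT 2 rose and 0 fell, beside 13.3% and 15.2%. Trex1, which degrades cytosolic DNA, rose 2.03-fold after F-PRT (adjusted p = 0.00904) and was 1.47-fold higher without passing after S-PRT (0.133). Enpp1, which hydrolyses the cGAS product cGAMP, rose 1.54-fold and 1.62-fold (adjusted p = 0.00471 and 0.00272). Pld3, a lysosomal exonuclease, rose 2.22-fold and 1.83-fold (0.00487 and 0.0249), and Rnaseh2c, a subunit of ribonuclease H2, fell to 0.652 after F-PRT (0.0194).

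Interferon-induced genes rose in bone beside the family. Of 30 genes of interferon signalling and response, 20 rose and 2 fell after F-PRT with a median log2 change of 0.82. Of all tested genes 15.5% rose and 17.2% fell. After S-PRT 13 rose and 2 fell with a median of 0.41, beside 13.3% and 15.2% of all tested genes. Ifi44, Ifit2, Ifit3 and Mx1 had the smallest adjusted p after F-PRT, with rises of 4.70-fold, 3.11-fold, 5.43-fold and 3.05-fold (1.5e-06, 8.37e-06, 8.88e-06 and 1.51e-05). After S-PRT Gbp2 (2.46-fold, 0.000339), Ifi44 (2.22-fold, 0.000349) and Ifit3 (2.55-fold, 0.000987) had the smallest adjusted p among the rises. Rsad2, itself interferon-induced, fell after both beams, to 0.584 and 0.451 (adjusted p = 0.00324 and 0.000249). In skin 0 of these 30 genes passed edgeR's test after either beam, where 2.39% and 4.34% of tested genes did. Still, 24 and 27 of their log2 changes were positive. Without the 5 libraries in doubt 10 were called higher in skin after F-PRT and 17 after S-PRT and 0 lower, where 14.0% and 23.4% of all genes were called in either direction. In bone 16 and 9 were then called higher and 1 and 4 lower, where 23.9% and 29.9% of all genes were called.

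The genes whose pattern was most like the family sum in both tissues were Parp14, Ms4a6b, Tlr4, Rnf213 and Ly86. Among 13376 named genes they had the highest smaller of the tissues' Pearson r with the summed log2 CPM, over 12 libraries each. For Parp14 r was 0.98 in skin and 0.982 in bone. For Ly86 it was 0.957 and 0.956. These correlations are descriptions over libraries that share treatment, tissue make-up and scaling. Within the family, the r of a member with the sum of the other 8 was at least 0.85 in both tissues for 7 members, and lower for Ifi209 (0.73 in skin, 0.553 in bone) and Aim2 (0.553 and -0.334).

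Cell type markers moved in the same libraries. In bone the 10 neutrophil markers all fell after both beams, from 3540 to 16200 summed CPM untreated to 668 to 831 after F-PRT and 519 to 1250 after S-PRT, with none at 0. Of 15 macrophage and monocyte markers 12 rose and 2 fell after either beam, with medians of 1.15 and 1.01, and 8 and 7 of 9 T and NK cell markers rose. Rises were not confined to these lists. After either beam 5 of 6 osteoclast, 5 of 6 adipocyte and 5 of 8 endothelial markers rose, as did 5 and 4 of 8 fibroblast markers, and none of these fell past the test. Of all tested genes 15.5% rose and 17.2% fell after F-PRT, and 13.3% rose and 15.2% fell after S-PRT. The macrophage sum overlapped between the groups (1450 to 4130 untreated, 2970 to 3450 after F-PRT, 1890 to 3130 after S-PRT), and Lyz2, which neutrophils also express, fell. Without Lyz2, left out after its values were seen, the other 14 markers summed to 624, 1220, 1580 and 1610 CPM untreated, 1970, 2280, 2030 and 2270 after F-PRT and 1970, 1210, 1810 and 2060 after S-PRT. On that sum F-PRT lay above Untreated without overlap. Because Lyz2 was left out with its values seen, this separation is a description only. The other marker that fell stayed in the sum. Erythroid markers fell in 6 of 7 after both beams, and all 7 keratinocyte markers tested were higher after F-PRT. Their sum was 0.764, 199, 34.5 and 59.3 CPM in the bone F-PRT libraries, so F-PRT 1 was below all untreated libraries (0.991 to 4.12). Without the libraries in doubt 2 of the 7 passed, where 23.9% of all tested genes did.

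In skin the macrophage and monocyte sum was 214 to 699 CPM untreated, 731 to 1110 after F-PRT and 184 to 1070 after S-PRT. After either beam 0 of its 15 markers passed, where 2.39% and 4.34% of all tested genes did. Without the 5 libraries in doubt 3 of the 15 passed as higher after F-PRT and 9 after S-PRT. In that setting 14.0% and 23.4% of all tested genes were called in either direction. The same library, S-PRT 4, was lowest for these markers and for the family sum. It was not low for these markers alone. Its fibroblast markers summed to 320 CPM, against 3640, 4810 and 4060 in the other S-PRT libraries, and its keratinocyte markers to 30200, the highest of its group. Without the 5 libraries in doubt 8 of 8 fibroblast and 8 of 8 endothelial markers also passed as higher after S-PRT, and 0 of 7 T and NK cell markers did.

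**Figure D5:**
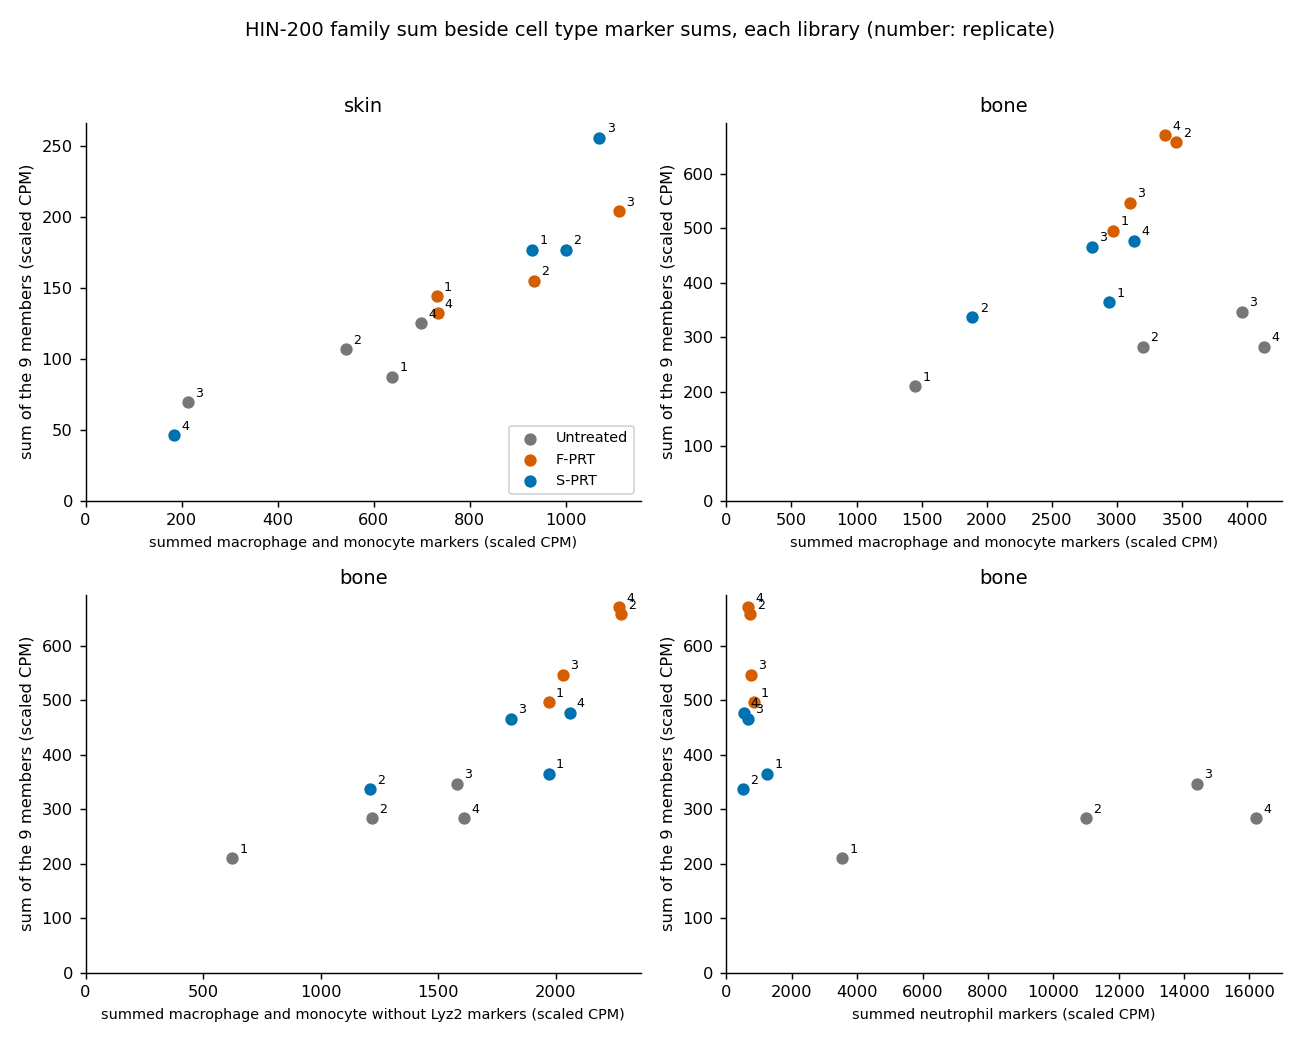
Sum of the 9 members (y axis, scaled CPM) beside the sum of cell type markers (x axis, scaled CPM) in each library, numbered by replicate and coloured by treatment. The panels show macrophage and monocyte markers in skin and in bone, these markers without Lyz2 in bone, and neutrophil markers in bone. Lyz2 was left out after its values were seen, so that panel is a description only. In skin S-PRT 4 is lowest on both axes at 184 and 46.1 CPM; in bone neutrophil markers of all irradiated libraries are at most 1250 CPM and of all untreated libraries at least 3540 CPM.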

How the data were processed

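The deposited files hold, per the file headers, RSEM expected counts, TPM and FPKM for each gene, made by the authors, and FPKM entered no test. FastQC, cutadapt, STAR and RSEM, with GRCm38, come from the submitters' processing notes; tool versions, tool roles and the annotation release were not given in the sources used here. Expected counts were rounded to whole numbers and tested with edgeR 4.0.16 (quasi-likelihood F test, TMM scaling, filterByExpr, Benjamini-Hochberg over all genes, threshold 0.05) in R 4.3.3, on the 12 libraries of a tissue, or on all 24 for tissue differences and interactions. Each SE was derived from that F test, as the absolute log2 change divided by the square root of F. GENCODE M21 matched 55230 of 55471 identifiers. Alternatives were RLE scaling, DESeq2 1.42.0, voom with quality weights (limma 3.58.1), other filters, a replicate block, only the libraries compared, and leaving out libraries. The fits were tested on simulated data. Members and lists were chosen with earlier results of these data known. All 9 members are named in each comparison; of each pathway list, up to 4 genes of smallest adjusted p past the test, with a fixed panel (Pycard, Casp1, Gsdmd, Il1b, Il18, Cgas, Sting1, Irf7, Trex1) whatever their result; 1 further gene of the panel is not reported here. Replicate pairs all differed by more than counting error (36 pairs, chi-square per degree of freedom at least 9.54). Whether replicates are separate animals is not stated beyond the label biological replicate. The floor of 3 counts covers counting error only, since reads carry no molecular identifiers. Promoter sequences are from RefSeq (GRCm38.p6).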

Additional observations from a re-analysis of the deposited data

Results flagged for a closer look

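The F-PRT effect on Ifi205 differed between the tissues by the interaction test, with a log2 change larger in bone than in skin by 2.00. It was 1 of 9 members to pass, where 10.7% of 20754 tested genes passed, so this count was near the background. Ifi205 shares 12.65% of its stretches of 150 bases with Ifi211, so its values singly are less certain than the family sum. Its levels were lower in untreated bone than in untreated skin, and its CPM after F-PRT were 13.5 to 21.5 in bone and 22.9 to 36.8 in skin. These CPM are scaled within each tissue, so the 2 ranges are not on a common scaling. No library stood apart by Dixon's criterion in the 60 groups of 4 examined, where chance alone would flag about 1 in 20.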

How the results depend on the processing

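Single members kept their direction and their side of the test in 1828 of the recalculations, gained a call in 52, lost one in 14 and changed sign in 50. The 7 rises in bone after F-PRT and the 5 after S-PRT (Ifi204, Ifi205, Ifi207, Ifi211 and Ifi213) passed in 20 of 20 alternatives each; what moved the other calls below was not tested. The count in skin after F-PRT was 2 with voom, 2 without the 5 libraries in doubt and 1 with the 8 libraries compared, where 13.8%, 14.0% and 6.63% of all genes were called, and after S-PRT it was 4 with voom (16.3%) and 6 without the libraries in doubt (23.4%). In bone DESeq2 called 1 member between the beams (0.111% of all genes). The F-PRT interaction gave 2 members with voom (20.3% of all genes) and 3 with the 16 libraries compared (14.1%), and the S-PRT interaction gave 1 without the libraries in doubt (17.0%), Ifi209, lower at -1.51. In bone after S-PRT the lower member without those libraries was Ifi209 (-0.53) in place of Aim2. The log2 ratio of the family sum in bone, 1.70 and 1.13 on TPM, was 1.08 and 0.55 on CPM.

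Leaving out 1 library at a time gave 0 to 3 members called in skin after F-PRT, 0 to 6 after S-PRT and 0 to 0 between the beams. In bone it gave 7 to 7, 5 to 7 and 0 to 0, in the tissue comparison 6 to 8, in the F-PRT interaction 1 to 3 and in the S-PRT interaction 0 to 0. The log2 ratio of the TPM sum ran from 0.71 to 1.01 and 0.80 to 1.42 in skin, 1.54 to 1.89 and 0.96 to 1.32 in bone, and 1.24 to 1.59 between the untreated tissues. Between the beams it ran from 0.48 to 0.66 in bone and from -0.53 to 0.09 in skin, positive without skin S-PRT 3.

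All changes of sign were of differences that did not pass. In skin Aim2 after F-PRT was -0.03 with voom and -0.02 without the libraries in doubt, and after S-PRT it was 0.00 with the 8 libraries compared. With 1 library left out it ran from -0.03 to 0.22 and from -0.16 to 0.12. Between the beams in skin, voom gave -0.05 for Ifi203, -0.24 for Ifi213 and -0.22 for Mndal, and leaving out the libraries in doubt gave -0.01 for Aim2, -0.13 for Ifi203, -0.21 for Ifi213 and -0.28 for Mndal. With 1 library left out these ran from -0.01 to 0.23 for Aim2, -0.13 to 0.49 for Ifi203, -0.37 to 0.33 for Ifi204, -0.35 to 0.23 for Ifi207, -0.36 to 0.13 for Ifi209, -0.37 to 0.21 for Ifi211, -0.32 to 0.61 for Ifi213 and -0.28 to 0.28 for Mndal. In the F-PRT interaction the ranges were -0.03 to 0.23 for Ifi203 and -0.05 to 0.28 for Mndal. In the S-PRT interaction they were -0.41 to 0.20 for Ifi203, -0.48 to 0.23 for Ifi204 and -0.51 to 0.05 for Mndal, and Ifi211 was -0.13 with voom and -0.15 without the libraries in doubt.

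Replicate numbers did not clearly pair the libraries. Residuals of libraries with the same number correlated over 0.1 in 7 of 12 pairs in skin, with a lowest r of -0.379. Their median r in skin was 0.127, against -0.03 between other numbers. In bone 3 of 12 pairs were over 0.1, with a lowest r of -0.284 and a median of -0.039 against 0.009. Across the tissues the medians were -0.023 and 0.004. In skin 5 of 12 libraries and in bone 3 of 12 correlated best with their own number. With the replicate number as a block 7 members were called higher in bone after either beam and 0 lower after S-PRT, where Mndal and Ifi203 passed and Aim2 did not. The block left 0 calls in the skin comparisons and between the beams in bone, 6 between the tissues, 1 in the F-PRT interaction and 0 in the S-PRT interaction. Under it 4 differences that did not pass changed sign: Ifi204, Ifi207 and Ifi211 between the beams in skin (0.03, 0.05 and 0.02) and Ifi203 in the S-PRT interaction (0.01).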
